A study of Mus musculus with 17 samples.

Results

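B cells carrying an Sf3b1 mutation as their only engineered lesion (labelled Sf3b1 MT, 3 libraries) were compared with wild-type B cells (WT, 3 libraries). The 6 libraries were taken by their genotype labels from a series of 17 that models chronic lymphocytic leukaemia (CLL) in mice. All were poly(A) RNA libraries of B cells from C57BL/6 animals that the sample titles call old, with no treatment given. The title of the series states that expression of the mutation was restricted to B cells. The amino acid change, the Cre driver, the organ the cells came from and the age in months are not given in the sources used here. Expression was deposited as TPM (a measure scaled by transcript length and library total) for 18554 gene symbols. The listed symbols held only part of that total, and the part was uneven. It was 57.2%, 44.1% and 54.9% in WT replicates 1 to 3 and 54.5%, 58.1% and 44.1% in Sf3b1 MT replicates 1 to 3. Libraries were rescaled to the same listed total only together with removal of immunoglobulin genes. The effect of these uneven shares on the ratios was therefore not tested alone. The comparison covers the 9898 genes with at least 1 TPM in at least 2 of the 17 libraries. Fold changes are log2 ratios of TPM + 1, Sf3b1 MT over WT, and this scale understates the change of low genes. A gene is said to have fallen or risen only where limma, fitted to the 15 nonleukaemic libraries, gave a Benjamini-Hochberg adjusted p under 0.05. The Sf3b1 mutation can also be read in cells with an Atm deletion, as double mutants (DM, n = 3) against Atm deletion alone (Atm MT, n = 6), which share no library with the main comparison. Whether replicates came from separate mice is not stated, so p-values measure the spread between these libraries, which may be partly technical.

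SF3B1 is the largest subunit of the SF3b complex of the U2 small nuclear ribonucleoprotein. SF3b holds the branch point adenosine of an intron in place and thereby fixes which 3′ splice site is used. In human CLL, SF3B1 is among the recurrently mutated genes, and mutant protein is known to favour cryptic 3′ splice sites, many of whose transcripts are degraded by nonsense-mediated decay. Gene-level TPM sum over the isoforms of a gene, so splice site choice was not measured.

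Across genes, Pearson's r of log2 values was 0.972 to 0.981 between Sf3b1 MT libraries, 0.963 to 0.980 between WT libraries and 0.948 to 0.981 between the groups. Between 8678 and 8858 genes reached 1 TPM in the Sf3b1 MT libraries, against 8886 to 8979 in the WT libraries. Read depth is unknown. Markers of B cells were present in every library: the 12 markers, among them Cd79a and Ms4a1, summed to 11165 to 14789 TPM in Sf3b1 MT and 12449 to 16355 TPM in WT. The WT libraries were not alike in Xist, the RNA that coats the inactive X chromosome of female cells. It measured 0.02, 0.03 and 0.03 TPM in Sf3b1 MT replicates 1 to 3, against 38.59, 47.05 and 0.08 TPM in WT replicates 1 to 3. WT replicate 3 was the one WT library near the Sf3b1 MT libraries in Xist, and results are given with Xist as a covariate and without the 6 of 15 libraries above 1 TPM where this changes a call. The labels give no sex, and the part of the Xist difference in the results was not tested beyond these fits.

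The transcript of the mutated gene itself was somewhat lower. Sf3b1 (chr1:54985169-55027481, GRCm38) measured 88.81, 50.19 and 70.62 TPM in Sf3b1 MT and 106.42, 112.99 and 96.1 TPM in WT. Every Sf3b1 MT library lay below every WT library, and replicate 2 was the lowest. The means were 69.9 ± 19.3 and 105 ± 8.51 TPM (SD, n = 3 each), a log2 ratio of −0.62 with a 95% interval of −1.15 to −0.08, which did not pass over all genes (limma, adjusted p = 0.417). In DM the gene measured 73.89, 39.77 and 58.68 TPM, against 112.12 to 191.34 TPM with a median of 130.19 TPM in Atm MT, and there it fell by 1.30 on the log2 scale (adjusted p = 0.0161). The difference in log2 ratio between the backgrounds did not pass (−0.68, 95% interval −1.39 to 0.02, adjusted p = 0.896). A mutation need not alter the level of its own transcript, so these values check the labels only in part.

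The other subunits of SF3b and SF3a did not share a direction. Of 9 tested members of the complexes 4 had a log2 ratio above 0 and 5 below, with a median of −0.00, against −0.11 over all genes, and the median was 0.13 after median-ratio scaling. Sf3b3, a scaffold subunit of SF3b, measured 77.03, 78.21 and 74.17 TPM in Sf3b1 MT and 67.17, 67.32 and 58.91 TPM in WT (log2 0.25, adjusted p = 0.705). Sf3b2, another subunit of SF3b that lies near the branch region, had means of 111 ± 6.66 and 106 ± 10.7 TPM. Sf3b4 had 35.3 ± 0.948 and 35.4 ± 5.01 TPM. Sf3b1 was the member with the smallest p.

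Across the transcriptome, 7 genes fell in Sf3b1 MT and 0 rose (0.0707% and 0% of 9898). At an unadjusted p under 0.05, 967 genes were lower (9.77%) and 80 higher (0.808%), 1047 in all (10.6%). Over all genes the log2 ratio had a median of −0.11 and lay below 0 for 67.8%. Every Sf3b1 MT library lay below every WT library for 1693 genes (17.1%) and above for 238 (2.4%). This asymmetry depended on the scaling: after median-ratio scaling the median was −0.000568, 50.1% of genes were below 0, and the groups did not overlap for 795 lower genes (8.03%) and 773 higher genes (7.81%). After that scaling 3 of the 7 genes fell (Fcgr2b, Fzd6 and Ms4a6c). No gene passed when only the 6 libraries were fitted (1397 at an unadjusted p under 0.05), with Xist as a covariate (920) or without the Xist-high libraries (448).

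The genes that fell were Fcgr2b, Cd80 and Ms4a6c, which encode membrane proteins of B cells and myeloid cells, Fzd6 and Cdk14, which act at the Wnt receptor, the homeobox gene Hoxa7 and the long noncoding RNA Gm1965. Because these genes were low together, the promoters of the 3 most abundant and of Cdk14 are shown, as RefSeq gives them on GRCm38.p6: 300 bases, 250 before and 50 after the annotated start, 5′ to 3′ on the gene's strand. The windows of Fcgr2b, Cd80, Cdk14 and Hoxa7 lie inside the gene bounds given below, so each gene has another annotated start further upstream. Which start is used in these cells was not tested. Capitals mark matches, on either strand, to any of 5 motifs that were searched. The ETS factor core was searched as GGAAGT and the TATA box as TATAAA. The GC box was searched as GGGCGG and the E-box of E proteins as CACCTG. The core of T-box sites was searched as TCACAC. No match overlapped another.
Fcgr2b, chr1:170976022-170976321, minus strand: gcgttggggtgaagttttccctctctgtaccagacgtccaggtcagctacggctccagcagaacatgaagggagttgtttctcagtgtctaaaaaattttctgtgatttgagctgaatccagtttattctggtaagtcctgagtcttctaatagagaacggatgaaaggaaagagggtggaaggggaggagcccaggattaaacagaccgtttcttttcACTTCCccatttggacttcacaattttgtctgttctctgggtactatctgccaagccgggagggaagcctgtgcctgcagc
Ms4a6c, chr19:11469118-11469417, plus strand: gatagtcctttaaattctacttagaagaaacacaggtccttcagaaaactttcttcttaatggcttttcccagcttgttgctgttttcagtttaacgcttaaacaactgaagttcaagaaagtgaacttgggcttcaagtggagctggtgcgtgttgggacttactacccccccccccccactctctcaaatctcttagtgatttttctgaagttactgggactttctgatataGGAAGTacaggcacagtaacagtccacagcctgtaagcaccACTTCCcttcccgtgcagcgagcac
Cd80, chr16:38458683-38458982, plus strand: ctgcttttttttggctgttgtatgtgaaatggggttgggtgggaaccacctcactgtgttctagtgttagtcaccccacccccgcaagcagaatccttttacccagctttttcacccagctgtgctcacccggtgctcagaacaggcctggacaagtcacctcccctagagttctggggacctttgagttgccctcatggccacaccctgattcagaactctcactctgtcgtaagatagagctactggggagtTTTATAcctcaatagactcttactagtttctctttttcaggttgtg
Cdk14, chr5:5380202-5380501, minus strand: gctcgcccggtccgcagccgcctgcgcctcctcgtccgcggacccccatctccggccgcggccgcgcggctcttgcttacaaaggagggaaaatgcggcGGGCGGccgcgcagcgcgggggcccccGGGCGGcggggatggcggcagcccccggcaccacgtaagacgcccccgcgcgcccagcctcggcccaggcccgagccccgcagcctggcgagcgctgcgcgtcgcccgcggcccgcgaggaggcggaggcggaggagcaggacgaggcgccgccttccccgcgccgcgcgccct

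The promoters of 6 of the 7 genes were matched, and Fzd6 is named only. No motif was found in all 6. An ETS core lay 31 bases upstream of the start of Fcgr2b, and Ms4a6c held it once upstream and once downstream of its start. Among the 32851 promoters in the RefSeq table, all of the same length, 23.77% hold this motif, as do 29.34% of the 9927 promoters of tested genes. Cdk14 differed in base composition, with 81.3% G and C, 53 CpG and 2 GC boxes, a motif held by 35.66% of all promoters and 62.02% of those of tested genes. The windows of Fcgr2b, Ms4a6c and Cd80 held 48%, 45% and 49.7% G and C and 6, 4 and 3 CpG, against medians of 52.7% and 7 CpG over all promoters. The TATAAA match of Cd80, a motif in 13.62% of all promoters and 7.213% of those of tested genes, began 5 bases after the start. Neither Hoxa7 nor Gm1965 held any of the 5 motifs, of which the E-box and the T-box core occur in 20.21% and 14.49% of all promoters and in 17.17% and 10.87% of those of tested genes. A match is a description of the letters and says nothing of binding.

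Fcgr2b (chr1:170958617-170976547) encodes FcγRIIB, the receptor for IgG that dampens B-cell receptor signalling when both are bound by the same immune complex. It measured 69.49, 69.0 and 54.57 TPM in Sf3b1 MT and 157.69, 190.24 and 181.78 TPM in WT. The groups were far apart, with the highest Sf3b1 MT library under the lowest WT library by a wide margin. The means were 64.4 ± 8.48 and 177 ± 16.9 TPM, and the log2 ratio was −1.45 (SE 0.20, 95% interval −1.87 to −1.02, adjusted p = 0.0128). The call was lost without WT replicate 2 (adjusted p = 0.0647), Sf3b1 MT replicate 2 (0.0905) or Sf3b1 MT replicate 3 (0.0625), and the log2 ratio stayed between −1.52 and −1.33 in all 6 omissions.

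Cd80 (chr16:38455561-38496335) encodes B7-1, a ligand of CD28 and CTLA-4 that B cells display after activation and that marks a subset of mouse memory B cells. It measured 4.39, 2.7 and 2.87 TPM in Sf3b1 MT and 22.08, 15.35 and 15.3 TPM in WT. All 3 mutant libraries were low and alike, and WT replicate 1 was the highest. The means were 3.32 ± 0.931 and 17.6 ± 3.90 TPM (log2 −2.11, SE 0.30, 95% interval −2.75 to −1.46, adjusted p = 0.0129). It passed without WT replicate 3 (adjusted p = 0.0225) and without Sf3b1 MT replicate 1 (0.0257) and missed the threshold in the other omissions (0.0584 to 0.0965).

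Ms4a6c (chr19:11469366-11482192) belongs to the MS4A family of proteins with 4 membrane spans, which includes CD20. It measured 13.93, 13.78 and 11.86 TPM in Sf3b1 MT and 35.4, 33.33 and 38.17 TPM in WT. The replicates of each group were close to each other. Its log2 ratio was −1.37 (SE 0.22, 95% interval −1.83 to −0.91, adjusted p = 0.0218), and it passed in 1 of the 6 omissions, without WT replicate 3 (adjusted p = 0.0469), and otherwise gave 0.074 to 0.138. Close paralogs lie beside it, and reads that match several of them may have been divided among them by the quantification. Its neighbour Ms4a6b had means of 11.4 ± 3.05 TPM in Sf3b1 MT and 11.1 ± 3.63 TPM in WT, and Ms4a6d 1.83 ± 0.561 and 2.26 ± 2.04 TPM.

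Fzd6 (chr15:39006034-39038188) encodes Frizzled-6, a membrane receptor for Wnt proteins. It measured 1.22, 0.87 and 0.75 TPM in Sf3b1 MT and 12.8, 4.25 and 6.51 TPM in WT. The mutant libraries were near 1 TPM throughout, while the WT libraries were spread widely. The log2 ratio was −2.08 (SE 0.28, 95% interval −2.68 to −1.48, adjusted p = 0.0128). The call passed in 4 of 6 omissions and was lost without Sf3b1 MT replicate 2 (adjusted p = 0.0905) or replicate 3 (0.0625). It was also lost with a pseudocount of 0.1 (0.101), as were those of Cdk14 (0.0523), Hoxa7 (0.135) and Gm1965 (0.200).

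Cdk14 (chr5:4803391-5420312) encodes a kinase that, with cyclin Y, phosphorylates the Wnt coreceptor LRP6. It measured 1.63, 1.46 and 2.02 TPM in Sf3b1 MT and 5.25, 5.19 and 4.72 TPM in WT. The 3 libraries of each group lay close together, and the groups were far apart. The log2 ratio was −1.17 (SE 0.18, 95% interval −1.56 to −0.77, adjusted p = 0.0218), and it passed in 1 of 6 omissions, without WT replicate 3 (adjusted p = 0.0328), and otherwise gave 0.0625 to 0.150.

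Hoxa7 (chr6:52214491-52221854) is a homeobox transcription factor gene of the HoxA cluster, which is active in blood progenitors and mostly silent in mature B cells. It measured 0.73, 0.77 and 0.47 TPM in Sf3b1 MT and 3.28, 3.04 and 2.54 TPM in WT. These are low levels in both groups, and they did not overlap. The log2 ratio was −1.26 (SE 0.21, 95% interval −1.70 to −0.81, adjusted p = 0.0322), with 1 of 6 omissions passing, that of WT replicate 3 (adjusted p = 0.0345), and the others at 0.0814 to 0.184. The annotated antisense RNA Hoxaas3 overlaps it on the other strand, and the strand of counting is not given in the sources used here. 

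Gm1965 (chr6:89140994-89147388) is a predicted gene annotated as a long intergenic noncoding RNA, and is named here after its values were seen. It measured 0.29, 0 and 0.38 TPM in Sf3b1 MT and 2.41, 3.38 and 3.03 TPM in WT (log2 −1.69, adjusted p = 0.0167, or 0.0316 without WT replicate 3, and 0.0501 to 0.126 in the other omissions).

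**Figure D1:**
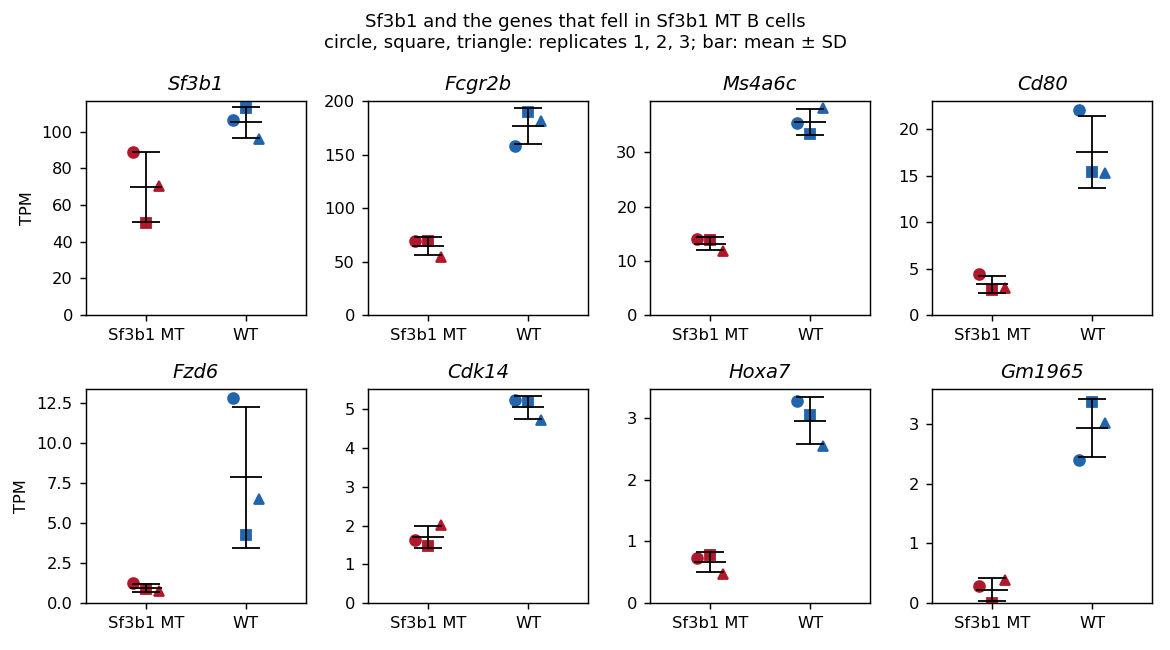
TPM of Sf3b1 and of the 7 genes that fell, in the 3 Sf3b1 MT libraries (left, red) and the 3 WT libraries (right, blue); circles, squares and triangles are replicates 1, 2 and 3, and bars give the mean and SD. In every panel all Sf3b1 MT libraries lie below all WT libraries, with means of 64.4 and 177 TPM for Fcgr2b and 3.32 and 17.6 TPM for Cd80.

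For each of the 7 genes WT replicate 3, the WT library without Xist, lay above every Sf3b1 MT library. The genes were chosen by a fall that was computed with this library, so no weight is put on that order. With Xist as a covariate the log2 ratios were −1.48 for Fcgr2b, −1.68 for Cd80, −2.01 for Fzd6, −1.28 for Ms4a6c, −1.02 for Cdk14, −1.18 for Hoxa7 and −1.52 for Gm1965. The smallest adjusted p of the 7 in that fit was 0.0557. Without the Xist-high libraries (a setting added once the values were known) WT holds only replicate 3, assumed to vary like the other groups. The log2 ratios were then −1.49 for Fcgr2b, −1.94 for Cd80 and −1.96 for Fzd6, with adjusted p of 0.143, 0.143 and 0.103. They were −1.73 for Gm1965 (0.116), −1.47 for Ms4a6c (0.300), −1.10 for Hoxa7 (0.300) and −1.09 for Cdk14 (0.433).

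No tested gene within 200 kb of the fallen genes passed. Tested neighbours were present for 6 of the 7 genes, and Hoxa7 had none. Of 7 tested genes near Fcgr2b 3 had a ratio below 0. Among them Atf6, a sensor of the unfolded protein response, had means of 21.6 ± 2.12 TPM in Sf3b1 MT and 32.3 ± 3.02 TPM in WT (log2 −0.56, adjusted p = 0.355). In the same window the related receptor genes Fcgr3 and Fcgr4 had mean levels of 9.66 ± 1.45 and 4.87 ± 0.484 TPM in Sf3b1 MT, against 9.35 ± 7.93 and 5.17 ± 3.10 TPM in WT. Fcrla, which encodes a B-cell protein of the same superfamily, had 160.1 ± 16.7 and 155 ± 36.9 TPM. Around Ms4a6c 7 of 8 neighbours were below 0, and Ms4a4c, with a log2 ratio of −1.31 (adjusted p = 0.205), was about as far below as Ms4a6c itself. Around Cd80 5 of 6 neighbours were below 0. The 10 Mb on either side of Sf3b1 held 61 tested genes, of which 54 had ratios below 0 (67.8% of all genes), 7 were at an unadjusted p under 0.05 and 0 passed, with a median of −0.21.

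In cells with the Atm deletion, the Sf3b1 mutation was read as DM against Atm MT. The listed symbols held 43.1% to 48.4% of the library total in DM and 44.9% to 56.1% in Atm MT. Between DM and Atm MT, 447 genes fell (4.52%) and 152 rose (1.54%), the median log2 ratio was −0.21 and 76.4% of genes were below 0. Of the 7 genes, 5 had a ratio below 0 and 2 fell, Fcgr2b and Cd80. Fcgr2b measured 58.17, 48.4 and 77.97 TPM in DM, against 84.87 to 141.22 TPM with a median of 109.37 TPM in Atm MT (log2 −0.82, adjusted p = 0.0277). It was the only gene of the 7 with every DM library below every Atm MT library, as 9.5% of all genes had. Cd80 measured 3.09, 5.28 and 3.78 TPM in DM, against 5.01 to 13.56 TPM with a median of 8.65 TPM in Atm MT (log2 −0.95, adjusted p = 0.0461). Its DM replicate 3 lay above the lowest Atm MT library. Both calls were lost after median-ratio scaling (limma, adjusted p = 0.076 for Fcgr2b and 0.144 for Cd80) and with only the groups compared (0.0652 and 0.097). The same held with immunoglobulin genes removed and libraries rescaled to the same listed total (0.0767 and 0.0966). Without the Xist-high libraries the log2 ratios were −0.61 for Fcgr2b and −0.70 for Cd80. They were also lost without Atm MT replicate 4 (0.0623 and 0.093), DM replicate 1 (0.0766 and 0.154) or DM replicate 3 (0.177 and 0.164). Cd80 missed the threshold in 11 of the 15 omissions of a library and without the filter on low values (0.0784). The number of genes called in DM against Atm MT also moved, from 599 to 7 without DM replicate 1, 9 without DM replicate 3, 18 without Atm MT replicate 4, 266 without Sf3b1 MT replicate 3, 283 and 293 without WT replicates 2 and 1, and 361 without Atm MT replicate 2.

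The other 5 genes did not fall between DM and Atm MT. Fzd6 measured 0.46, 0.46 and 0.39 TPM in DM, and 0.06 to 0.73 TPM with a median of 0.44 TPM in Atm MT (log2 0.06, adjusted p = 0.894). Ms4a6c measured 17.38, 20.48 and 24.59 TPM in DM, and 13.61 to 30.6 TPM with a median of 21.3 TPM in Atm MT (log2 −0.02, adjusted p = 0.950). These groups overlapped. Cdk14 measured 1.72, 2.37 and 2.13 TPM in DM, and 1.75 to 3.55 TPM with a median of 2.85 TPM in Atm MT (log2 −0.30, adjusted p = 0.236). For Hoxa7 and Gm1965 the log2 ratios were 0.12 and −0.08, with adjusted p of 0.699 and 0.849. For all 7 genes, Fcgr2b and Cd80 included, every DM library and every Atm MT library also lay below every WT library. The genes were chosen by WT values above those of Sf3b1 MT, and the share of all genes in this order was not counted. These comparisons with WT rest on the same 3 WT libraries, so the low values in the mutant groups are not independent of each other.

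The difference between the effects of the Sf3b1 mutation with and without the Atm deletion was tested directly, as the log2 ratio in DM over Atm MT minus that in Sf3b1 MT over WT. Over all genes 0 passed (0%), with 546 at an unadjusted p under 0.05 (5.52%), in limma. Among the 7 genes the difference was 2.14 for Fzd6 (95% interval 1.34 to 2.93, adjusted p = 0.365), 1.35 for Ms4a6c (0.73 to 1.96, adjusted p = 0.483) and 1.37 for Hoxa7 (0.78 to 1.96, adjusted p = 0.483). It was 1.16 for Cd80 (adjusted p = 0.719), 0.87 for Cdk14 (0.35 to 1.39, adjusted p = 0.608) and 0.63 for Fcgr2b (0.07 to 1.19, adjusted p = 0.878). The 7 genes were chosen by their fall in the first comparison, so no weight is put on the shared sign of these differences. Without WT replicate 2 Fzd6 passed this test, and no other gene did. Across all 9898 genes Pearson's r between the 2 log2 ratios was 0.356, a description across genes that share libraries within each ratio.

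**Figure D2:**
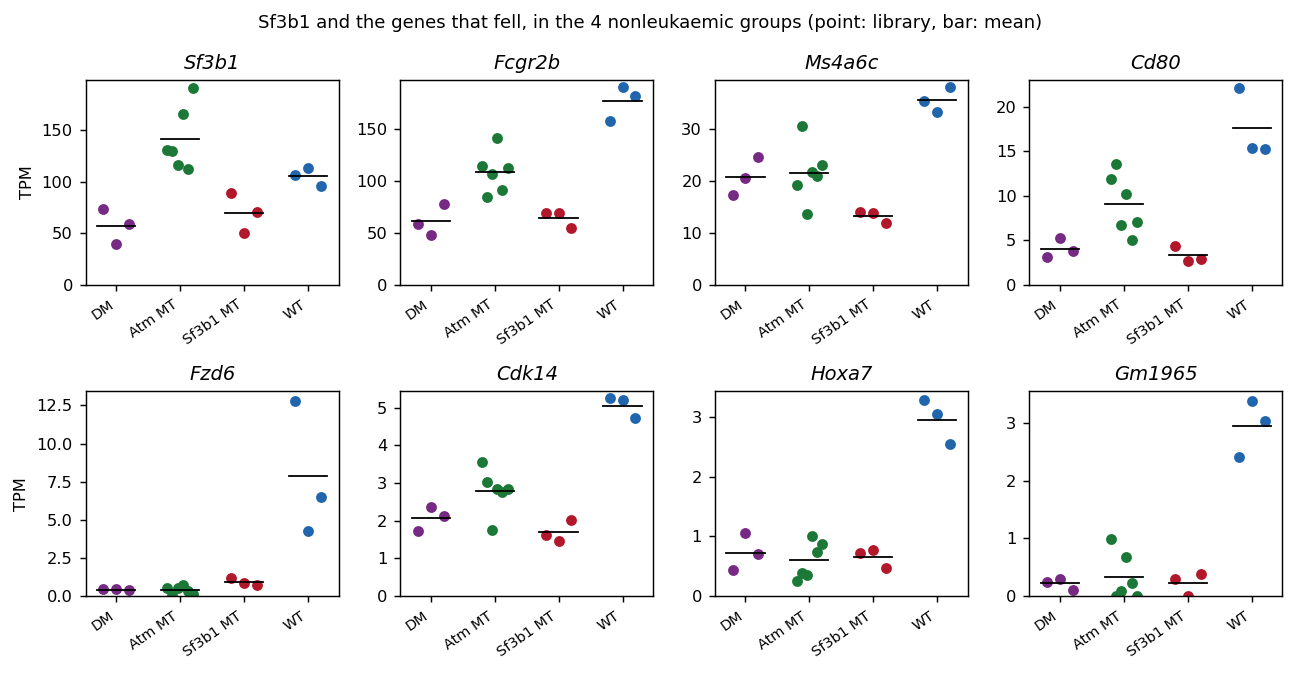
TPM of Sf3b1 and of the 7 genes in DM, Atm MT, Sf3b1 MT and WT libraries (points; bars are group means). Among these nonleukaemic groups Sf3b1 was low in the 2 with the mutation, whereas Fzd6, Cdk14, Hoxa7 and Gm1965 stood high in the WT libraries alone.

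**Figure D3:**
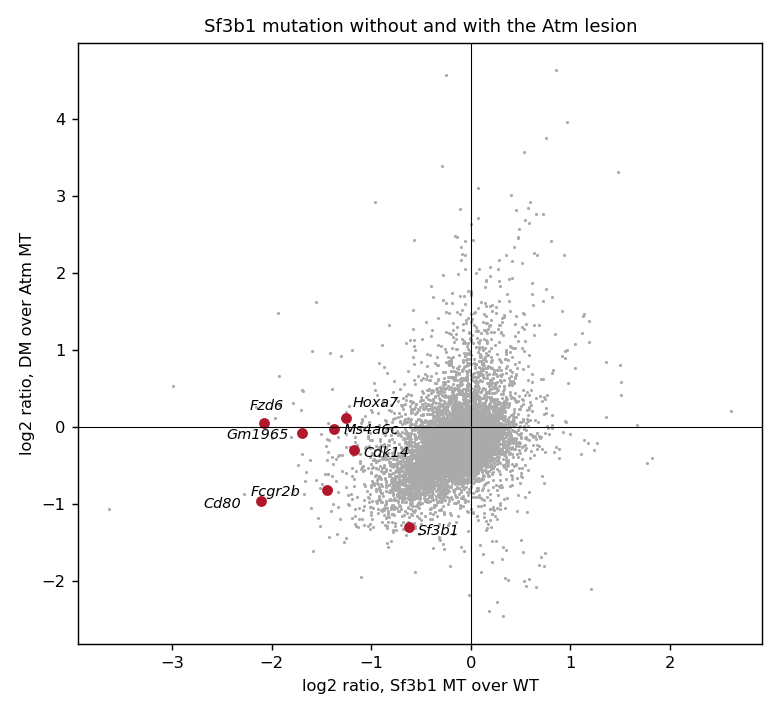
Log2 ratio of Sf3b1 MT over WT (horizontal) against that of DM over Atm MT (vertical) for 9898 genes (grey), with Sf3b1 and the 7 genes in red. Cd80 and Fcgr2b lie below 0 on both axes, at −2.11 and −0.95 for Cd80, while Fzd6 lies at −2.08 and 0.06.

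Among the 38 lists of genes, that of memory and age-associated B cells had the lowest median. The lists were chosen with earlier results of these data known, so this rank is only a description. Age-associated B cells accumulate in old mice and depend on the transcription factor T-bet. All 19 tested members had a log2 ratio below 0, with a median of −1.01, against −0.11 over all genes. Every Sf3b1 MT library lay below every WT library for 14 members (17.1% of all genes), and 13 had an unadjusted p under 0.05 (9.77% lower among all genes). Of the members 1 fell, Cd80 (0.0707% of all genes). The median was −0.88 after median-ratio scaling, −0.82 with Xist as a covariate, −0.80 without the Xist-high libraries and between −1.16 and −0.92 when a library was left out. In bulk RNA, fewer cells of a type and less RNA per cell cannot be told apart.

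Tbx21, which encodes T-bet, measured 5.89, 7.74 and 4.58 TPM in Sf3b1 MT and 22.41, 21.99 and 19.99 TPM in WT. The groups were well separated, and the log2 ratio of −1.69 did not pass over all genes (adjusted p = 0.104, and 0.117 to 0.398 in the 6 omissions). Nt5e, the ectonucleotidase CD73 that marks memory B cells, measured 2.42, 2.82 and 2.59 TPM in Sf3b1 MT and 25.64, 16.93 and 10.25 TPM in WT (log2 −2.28, adjusted p = 0.0659). Here the mutant libraries were nearly equal, and the WT libraries ran over a wide range with WT replicate 3 lowest. Cd86, the second B7 ligand, measured 14.91, 11.62 and 13.05 TPM in Sf3b1 MT and 36.35, 23.86 and 23.62 TPM in WT (log2 −1.01, adjusted p = 0.0819). Fas, a death receptor that activated B cells display, measured 8.01, 5.67 and 5.25 TPM, against 25.72, 18.51 and 12.85 TPM in WT (log2 −1.42, adjusted p = 0.108).

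Other members, named here after their values were seen, differed in how far apart the groups were. Zeb2, a transcription factor of these cells, had means of 2.52 ± 0.679 TPM in Sf3b1 MT and 7.33 ± 1.20 TPM in WT. Cd38, an ectoenzyme of naive and memory B cells, had 80.6 ± 9.55 and 129 ± 17.9 TPM, and Cxcr3, a chemokine receptor that T-bet induces in other lymphocytes, 8.92 ± 3.01 and 15.4 ± 4.98 TPM. For Itgam (CD11b), with 3.5, 4.25 and 5.07 TPM in Sf3b1 MT and 3.78, 11.98 and 13.08 TPM in WT, WT replicate 1 lay within the mutant range. For Zbtb32 WT replicate 1 lay above the mutant libraries but nearer to them than the other WT libraries did. Zbtb32 measured 4.59, 3.72 and 3.33 TPM in Sf3b1 MT and 6.96, 17.6 and 19.77 TPM in WT. Itgax, which encodes the CD11c chain that defines age-associated B cells in mice, measured 21.22, 21.02 and 18.82 TPM in Sf3b1 MT and 29.34, 36.27 and 27.71 TPM in WT (log2 −0.58, adjusted p = 0.792), and in DM over Atm MT its log2 ratio was 1.27. The member nearest to 0 was Tnfrsf13b, the receptor TACI, with means of 75.2 ± 4.52 and 78.1 ± 14.5 TPM (log2 −0.04). Parm1 measured 1.52, 0.75 and 0.71 TPM in Sf3b1 MT and 17.14, 5.1 and 0.35 TPM in WT, with WT replicate 3 lowest of all. Mki67 measured 7.76, 4.03 and 8.16 TPM in Sf3b1 MT and 18.82, 17.97 and 4.67 TPM in WT, with overlap. Without the Xist-high libraries the log2 ratios of Parm1 and Mki67 were above 0, at 0.54 and 0.38. In DM against Atm MT 15 of the 19 were below 0 with a median of −0.38, against −0.21 over all genes. There 5 fell, as 4.52% of all genes did (limma). Their adjusted p were 0.0461 for Cd80, 0.0160 for Cd86, 0.0400 for Fcrl5, 0.0490 for Tlr7 and 0.0387 for Cd38. The number of genes called in that comparison dropped from 599 to 7 without DM replicate 1 and to 9 without DM replicate 3.

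**Figure D4:**
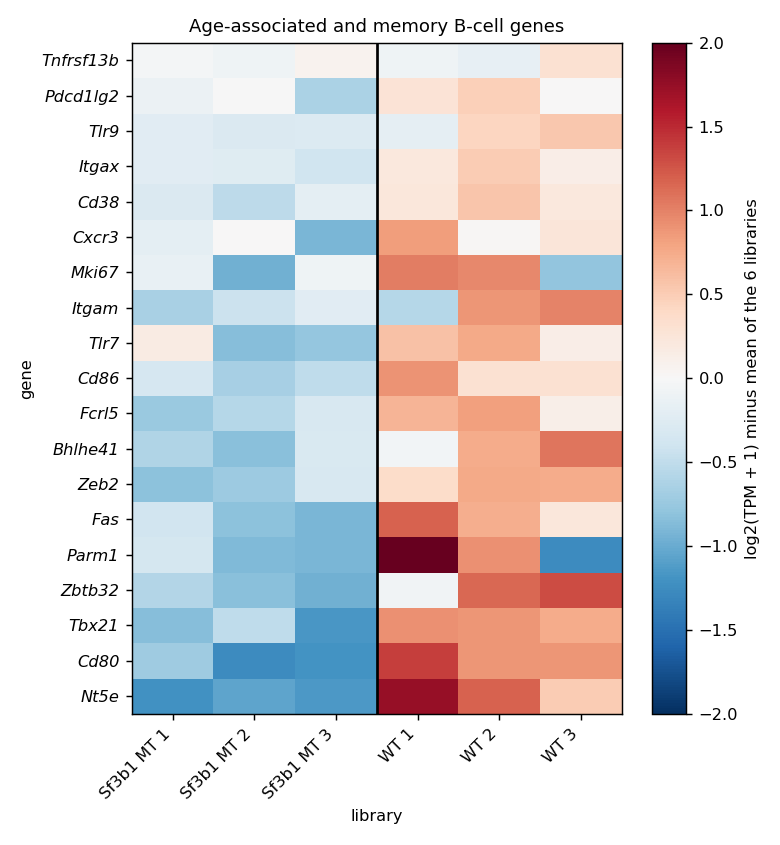
Log2(TPM + 1) of the 19 genes of memory and age-associated B cells in each library, minus the gene's mean over the 6 libraries; Sf3b1 MT libraries are left of the line and WT libraries right of it. Nt5e, Cd80 and Tbx21 are low in all 3 Sf3b1 MT libraries and high in all 3 WT libraries, and Tnfrsf13b, with a log2 ratio of −0.04, shows little contrast.

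Ligands and receptors of costimulation were mostly lower. Of 12 tested members of the CD28 and B7 families 11 were below 0 (median −0.36, and −0.30 after scaling) and 1 fell, Cd80. Pdcd1lg2, which encodes the PD-1 ligand PD-L2, measured 8.54, 9.34 and 5.67 TPM in Sf3b1 MT and 11.57, 13.45 and 9.48 TPM in WT (log2 −0.51, adjusted p = 0.43). Its groups did not overlap but nearly touched. Of 16 inhibitory receptors of B cells 12 were below 0 (median −0.33, and −0.23 after scaling) and 1 fell, Fcgr2b. Cd72, a C-type lectin that recruits the phosphatase SHP-1, measured 120.82, 109.29 and 96.85 TPM in Sf3b1 MT and 266.61, 219.26 and 222.3 TPM in WT (log2 −1.11, adjusted p = 0.205). Fcrl5, an Fc receptor-like protein of marginal zone and B-1 cells, measured 25.74, 29.17 and 34.87 TPM in Sf3b1 MT and 70.25, 77.33 and 47.6 TPM in WT (log2 −1.08, adjusted p = 0.205). Both were clear of overlap between the groups, and neither passed. Of the 16 inhibitory receptors 5 were lower without overlap, against 17.1% of all genes. Over all genes 67.8% were below 0 and 0.0707% fell. Both lists were chosen with earlier results known, so the member of each that fell lends it no weight.

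In the MS4A family 10 of 16 members were tested, 9 had ratios below 0 and 1 fell, Ms4a6c, with a median of −0.11, near that of all genes. The median was −0.06 after scaling and 0.10 without WT replicate 3. Members differed widely in their ratios. Ms4a4c, which lies within the same cluster on chromosome 19, measured 78.39, 50.63 and 65.56 TPM in Sf3b1 MT and 183.86, 159.77 and 139.26 TPM in WT (log2 −1.31, adjusted p = 0.205). Ms4a4b measured 3.59, 2.81 and 3.92 TPM in Sf3b1 MT and 5.61, 8.82 and 8.05 TPM in WT (log2 −0.92, adjusted p = 0.446). Among 24 tested genes of Wnt receptors and their pathway 19 were below 0, against 67.8% of all genes (median −0.17, and −0.05 after scaling). In this list 2 fell, Fzd6 and Cdk14, as 0.0707% of all genes did. Ryk, a receptor tyrosine kinase-like Wnt receptor, measured 0.78, 1.5 and 1.99 TPM in Sf3b1 MT and 3.01, 3.08 and 3.72 TPM in WT. Rnf43, a ubiquitin ligase that removes Frizzled receptors from the surface, measured 0.66, 0.18 and 0.64 TPM, against 1.32, 1.56 and 1.58 TPM in WT. Neither Wnt gene passed (adjusted p = 0.355 for Ryk and 0.247 for Rnf43). Of 19 cyclin-dependent kinases and cyclin Y genes 16 were below 0 with a median of −0.11, which was 0.01 after scaling, and Cdk14 alone fell. All 7 tested HoxA genes and cofactors were below 0, with a median of −0.26 and −0.13 after scaling. Only Hoxa7 among them fell. Over all genes 67.8% were below 0 and 0.0707% fell. The lists of this paragraph were chosen with earlier results known and each holds a gene that fell, so that member lends its list no weight.

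No gene of the lists that separate B-cell subsets passed. Of 18 marginal zone and B-1 genes 13 were below 0 (median −0.29, and −0.16 after scaling). Zbtb20, a zinc finger factor of B-1 and plasma cells, measured 1.71, 0.78 and 2.6 TPM in Sf3b1 MT and 8.36, 6.13 and 7.08 TPM in WT (log2 −1.65, adjusted p = 0.152). Spn, which encodes the B-1 marker CD43, measured 14.01, 19.92 and 14.85 TPM, against 27.16, 41.81 and 65.01 TPM in WT (log2 −1.33, adjusted p = 0.36). Bhlhe41, a transcription factor needed by B-1a cells, measured 2.83, 2.25 and 3.7 TPM, against 4.59, 8.77 and 11.19 TPM in WT. These 3 genes did not overlap between the groups and did not pass. Of the 18 marginal zone and B-1 genes 6 were lower without overlap, against 17.1% of all genes. Of 11 follicular B-cell genes 6 were above 0, with a median of 0.04, which was 0.17 after scaling and −0.22 with Xist as a covariate. Fcer2a, the low-affinity IgE receptor CD23 of follicular B cells, measured 285.11, 275.98 and 243.51 TPM in Sf3b1 MT and 141.56, 144.13 and 195.05 TPM in WT (log2 0.75, adjusted p = 0.541). Vpreb3, a chaperone of the immunoglobulin light chain, measured 104.09, 83.49 and 90.81 TPM, against 67.24, 59.23 and 73.32 TPM in WT (log2 0.47, adjusted p = 0.452). Every Sf3b1 MT library stood above every WT library for both genes, and neither passed. That order held for 3 of the 11 follicular genes, against 2.4% of all genes.

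The machinery of B-cell identity and antigen presentation differed little from all genes. Of 30 tested genes of B-cell receptor signalling 22 were below 0, with a median of −0.16, or −0.03 after scaling, and 0 passed. Blnk, the central adaptor of that pathway, measured 83.77, 82.84 and 85.76 TPM in Sf3b1 MT and 130.1, 115.1 and 94.88 TPM in WT (log2 −0.41, adjusted p = 0.398). Malt1, a paracaspase that acts in NF-kB signalling, had means of 36.2 ± 5.57 and 59.7 ± 8.21 TPM. For 24 B-lineage transcription factors the median was −0.10, or 0.03 after scaling, and for 14 MHC class II presentation genes −0.09, or 0.05 after scaling. Tcf4, which encodes the E protein E2-2, measured 4.97, 2.99 and 4.24 TPM in Sf3b1 MT and 9.39, 9.73 and 8.02 TPM in WT (adjusted p = 0.398), with no overlap. Cd74, the invariant chain of MHC class II, measured 8202.2, 8906.84 and 6573.3 TPM, against 11182.4, 7956.62 and 8731.62 TPM in WT, with overlap. Of 12 plasma-cell genes 8 were below 0 with a median of −0.20, and 0 had an unadjusted p under 0.05.

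The unfolded protein response, by which cells adjust the folding capacity of the endoplasmic reticulum, had all 25 tested members below 0, with a median of −0.41 (−0.27 after scaling), against −0.11 over all genes. Of these, 10 had an unadjusted p under 0.05 and 10 did not overlap between groups (9.77% and 17.1% of all genes), and 0 passed. Hsp90b1, the chaperone GRP94, measured 213.83, 119.58 and 188.46 TPM in Sf3b1 MT and 584.57, 559.28 and 218.25 TPM in WT (log2 −1.29, adjusted p = 0.205). Hspa5, the chaperone BiP, measured 166.98, 132.85 and 197.27 TPM, against 417.68, 390.09 and 205.1 TPM in WT (log2 −0.97, adjusted p = 0.264). The pattern in WT was uneven: replicates 1 and 2 were high, and replicate 3 lay just above the highest mutant library. The list's mean log2 value was 5.70, 5.58 and 5.92 in Sf3b1 MT and 6.34, 6.32 and 5.93 in WT, and its median ratio was −0.15 without the Xist-high libraries. Pdia3 and Pdia6, which form disulfide bonds in client proteins, had log2 ratios of −0.90 and −0.70 (adjusted p = 0.247 and 0.337).

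Splicing factors outside SF3 were also lower on balance. Of 41 tested members 33 were below 0 (median −0.35, and −0.21 after scaling), 12 did not overlap and 9 had an unadjusted p under 0.05 (17.1% and 9.77% of all genes), and 0 passed. Hnrnpa2b1, an RNA-binding protein that regulates splicing, measured 114.87, 54.77 and 79.0 TPM in Sf3b1 MT and 191.97, 233.09 and 122.29 TPM in WT (log2 −1.14, adjusted p = 0.205). Srsf5, a serine and arginine-rich splicing factor, measured 126.33, 76.55 and 102.32 TPM, against 190.7, 187.94 and 168.63 TPM in WT (log2 −0.86, adjusted p = 0.247). Sf3b1 MT replicate 2 was the lowest library for both, as for Sf3b1 itself. In DM against Atm MT Srsf5 fell (log2 −1.05, adjusted p = 0.0239), and Hnrnpa2b1 did not pass (log2 −0.23, adjusted p = 0.586). The list's median was −0.16 without Sf3b1 MT replicate 2 and −0.13 without the Xist-high libraries. Of 28 mouse orthologues of genes that mutant SF3B1 misspliced in human cells, 18 were below 0 and 10 above (median −0.22, and −0.10 after scaling), and 0 passed. Metap2, a methionine aminopeptidase, measured 11.59, 10.02 and 10.04 TPM in Sf3b1 MT and 20.17, 24.13 and 13.56 TPM in WT (log2 −0.78, adjusted p = 0.316). Ubl7, a ubiquitin-like protein gene, lay on the other side, with means of 44.1 ± 4.60 and 34.8 ± 4.59 TPM (log2 0.34, adjusted p = 0.427). Of 15 nonsense-mediated decay factors 13 were below 0 (median −0.15, and −0.02 after scaling). Upf3b, a core factor of that pathway, had means of 6.99 ± 3.22 TPM in Sf3b1 MT and 12.2 ± 3.45 TPM in WT, and its groups overlapped.

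**Figure D5:**
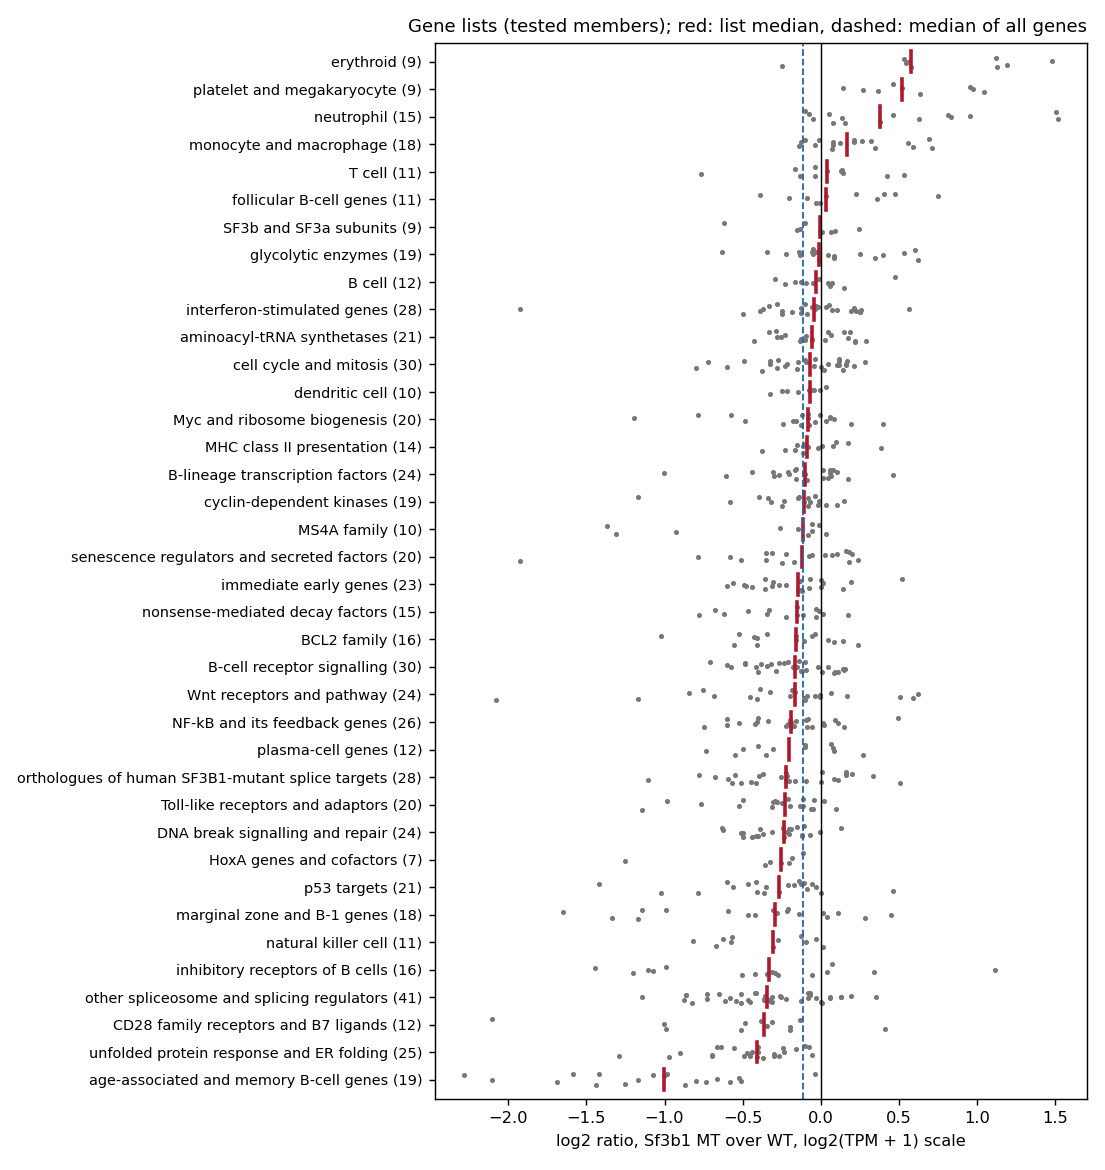
Log2 ratio of Sf3b1 MT over WT for the tested members (points, number in brackets) of 38 gene lists; red ticks are list medians, the dashed line is the median of all genes (−0.11) and the solid line is 0. The age-associated and memory list has the lowest median (−1.01), and the erythroid (0.58) and platelet (0.52) markers the highest.

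Stress and signalling groups gave the following. Of 21 tested p53 targets 20 were below 0 (67.8% of all genes), with a median of −0.26 (−0.16 after scaling), and 0 passed. Mdm2, the ubiquitin ligase that restrains p53, measured 8.82, 9.06 and 9.96 TPM in Sf3b1 MT and 20.22, 18.36 and 12.46 TPM in WT (log2 −0.78, adjusted p = 0.239). Pmaip1, the BH3-only protein NOXA, measured 14.11, 11.27 and 18.81 TPM, against 32.1, 28.39 and 30.47 TPM in WT (log2 −1.02, adjusted p = 0.355). The p53 targets Fas, Mdm2 and Pmaip1 did not overlap between the groups. In all, 5 of the 21 targets were lower without overlap, against 17.1% of all genes. Of 24 genes of DNA break signalling and repair 23 were below 0 (median −0.24, and −0.15 after scaling), among them Rad50, a DNA-binding subunit of the MRN complex, with means of 6.48 ± 1.87 and 8.96 ± 1.01 TPM. Of 20 Toll-like receptors and adaptors 18 were below 0 (median −0.23, and −0.10 after scaling). Tlr7, the endosomal sensor of single-stranded RNA, measured 15.3, 7.06 and 7.49 TPM in Sf3b1 MT and 20.95, 23.55 and 14.98 TPM in WT (log2 −0.98, adjusted p = 0.357), so that Sf3b1 MT replicate 1 lay above WT replicate 3. Of 26 genes of NF-kB and its feedback 20 were below 0 (median −0.19, and −0.06 after scaling), with Nfkbiz at 13.0 ± 3.59 and 22.3 ± 4.60 TPM.

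Other groups had medians near that of all genes. These were −0.16 for 16 members of the BCL2 family, −0.14 for 23 immediate early genes and −0.12 for 20 senescence regulators and secreted factors. The median was −0.08 for 20 Myc and ribosome biogenesis genes, −0.07 for 30 cell cycle genes, −0.06 for 21 aminoacyl-tRNA synthetases, −0.05 for 28 interferon-stimulated genes and −0.01 for 19 glycolytic enzymes. No member of these lists passed. After scaling the medians of the Myc, cell cycle, synthetase, interferon and glycolysis lists were above 0. The cell cycle list ran from −0.46 without WT replicate 3 to 0.58 without the Xist-high libraries. In the Myc list Npm1, the nucleolar chaperone nucleophosmin, measured 309.28, 70.54 and 141.4 TPM in Sf3b1 MT and 381.8, 403.15 and 243.75 TPM in WT (log2 −1.19, adjusted p = 0.348), with Sf3b1 MT replicate 1 within the range of WT.

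Of the genes that did not pass, 515 combined no overlap between the groups and an unadjusted p under 0.05 with a group mean of 5 TPM or more, 481 of them lower and 34 higher. The 8 with the lowest ratios ran from −2.99 to −1.73 (adjusted p = 0.0659 to 0.337). They were Klk1, Nt5e, Ramp3, Fgl2, Cxcl10, Dnm3, Fah and Tnfrsf8, and 7 of them were highest in WT replicate 1. Klk1, a kallikrein protease, showed this most, with 0.49, 2.01 and 0.69 TPM in Sf3b1 MT and 157.81, 2.26 and 6.3 TPM in WT. Fgl2, which encodes a ligand of FcγRIIB, was the exception, with 17.65, 8.96 and 11.84 TPM in Sf3b1 MT and 45.8, 56.38 and 52.03 TPM in WT (log2 −1.97, adjusted p = 0.0874). Its WT libraries were alike, and its level in DM and Atm MT, at 11.75, 13.2 and 20.25 TPM and a median of 13.83 TPM, was near that of Sf3b1 MT. Dnm3, a dynamin, measured 2.18, 2.01 and 1.44 TPM in Sf3b1 MT and 20.78, 7.46 and 5.92 TPM in WT (log2 −1.92, adjusted p = 0.0774). The chemokine gene Cxcl10, which CXCR3 binds, measured 4.52, 3.79 and 2.65 TPM, against 33.81, 19.13 and 6.54 TPM in WT (log2 −1.92, adjusted p = 0.175). The 8 with the highest ratios, Myl9, Amz2, Gng11, Tsc22d1, Tubb1, Parvb, Slc14a1 and Mfsd10, ran from 0.89 to 1.36 (adjusted p = 0.175 to 0.427). Myl9, a myosin light chain of platelets and smooth muscle, measured 5.91, 6.7 and 8.44 TPM in Sf3b1 MT and 0.98, 1.99 and 3.98 TPM in WT. Tubb1, the tubulin of platelets, measured 7.15, 4.8 and 8.46 TPM, against 1.45, 3.16 and 4.0 TPM in WT. Amz2, a peptidase, measured 7.55, 7.09 and 8.25 TPM, against 2.08, 1.12 and 4.8 TPM in WT, and is not a gene of platelets.

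Markers of other cell types were present in all libraries, and none of the markers listed for any type was at 0 in all 6. All 9 tested platelet and megakaryocyte genes were above 0 (median 0.52, and 0.58 after scaling), 5 did not overlap (2.4% of all genes) and 0 passed, and their TPM summed to 36.7 to 59.1 in Sf3b1 MT and 20.6 to 34.5 in WT. Itga2b, the platelet integrin chain CD41, measured 3.5, 3.27 and 5.51 TPM in Sf3b1 MT and 1.13, 1.57 and 2.0 TPM in WT (log2 0.98, adjusted p = 0.209). Monocyte and macrophage markers, 13 of 18 above 0 with a median of 0.17, summed to 401 to 508 TPM in Sf3b1 MT and 181 to 978 TPM in WT, with WT replicate 3 the highest. Neutrophil markers, 12 of 15 above 0 with a median of 0.38, summed to 162 to 606 and 66.7 to 1142 TPM. Erythroid markers, 8 of 9 above 0 with a median of 0.58, summed to 112 to 1373 and 170.1 to 436 TPM. These 3 lists overlapped between the groups, and without the Xist-high libraries their medians were −0.45, −1.12 and 1.57. T-cell markers summed to 40.8 to 41.9 and 36.2 to 43.6 TPM (6 of 11 above 0), dendritic cell markers to 63.2 to 84.1 and 80.5 to 97.2 TPM (1 of 10 above 0). Natural killer cell markers stood lower, with 10 of 11 below 0, a median of −0.30 and sums of 17.15 to 19.2 TPM in Sf3b1 MT and 23.1 to 27.95 TPM in WT. Fcgr2b, Ms4a6c and Itgax are also expressed by myeloid cells, and Tbx21 and Cxcr3 by natural killer cells. The part of these other cells in the results was not tested.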

How the data were processed

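The deposited table holds TPM for 18554 gene symbols in 17 poly(A) RNA libraries of mouse B cells, made by the authors from reads aligned with STAR to mm10, per the submitters' processing notes. The quantifier, the gene annotation and their versions are not given in the sources used here. Read depth is unknown, and counting intervals are therefore not given. The symbols were placed on GRCm38 with GENCODE M21.

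Values were taken as log2(TPM + 1), genes under 1 TPM in all but 1 library were left out, and 9898 were fitted with limma 3.58.1 (R 4.3.3, variance trend) over 15 libraries in 4 groups. The 2 DM-CLL libraries were not fitted. P-values were two-sided and adjusted by Benjamini-Hochberg over all tested genes. The procedure was tested on simulated data. Named were Sf3b1, the genes that passed, the 8 highest and 8 lowest ratios among the 515 candidates that did not pass, and up to 4 members of each of the 38 lists with the smallest p among those whose higher group averaged 1 TPM or more. The members and lists were chosen with earlier results of these data known. Lists are described by counts and medians, with no test. Alternatives were a pseudocount of 0.1, no filter, median-ratio scaling, library weights, a replicate block and only the groups compared. Others were Xist as a covariate, leaving out the Xist-high libraries, and leaving out each library. In a further setting immunoglobulin genes were removed and every library was rescaled to the same listed total. Only 2 immunoglobulin genes were among those tested, and the parts of removal and rescaling were not separated. Summaries used Python 3.11.15 with pandas 2.3.3.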

Additional observations from a re-analysis of the deposited data

Results flagged for a closer look

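The 2 libraries of leukaemic double mutants (DM-CLL replicates 4 and 5), which enter no comparison here, lay above every WT library for 4 of the genes described. Sf3b1 measured 140.33 and 137.74 TPM in DM-CLL, against 96.1 to 112.99 TPM in WT. Cd80 measured 29.54 and 31.91 TPM in DM-CLL, against 15.3 to 22.08 TPM in WT. Fcgr2b measured 262.38 and 262.93 TPM in DM-CLL, against 157.69 to 190.24 TPM in WT. Ms4a6c measured 142.02 and 72.27 TPM in DM-CLL, against 33.33 to 38.17 TPM in WT. Each of the 4 genes was lower in all 3 Sf3b1 MT libraries than in any WT library. For them the leukaemic libraries thus lay on the other side of WT. In DM-CLL Fzd6 (0.09 and 0.19 TPM) and Hoxa7 (0 and 0.28 TPM) lay below every WT library. Cdk14 (3.71 and 11.77 TPM) and Gm1965 (0.4 and 4.47 TPM) lay below every WT library in replicate 4 and above in replicate 5. The share of all genes in either order was not counted, and these differences were not tested.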

How the results depend on the processing

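The 7 falls between Sf3b1 MT and WT kept their sign under every setting run, but their number did not hold. The count of genes called was 3 with a pseudocount of 0.1, 17 without a filter and 3 after median-ratio scaling. It was 4 with immunoglobulin genes removed and libraries rescaled, and 149 with library weights (9 rose and 140 fell). It was 0 when only the groups compared were fitted, 0 with Xist as a covariate, 0 without the Xist-high libraries and 0 to 23 with a library left out (0 without Sf3b1 MT replicate 2, 23 without WT replicate 3). Between DM and Atm MT, 599 genes passed. There the count was 168 without a filter and 386 after median-ratio scaling (275 rose and 111 fell, against 152 and 447). It was 68 with immunoglobulin genes removed and libraries rescaled, and 2173 with library weights. With only the groups compared it was 57, and with a library left out 7 to 864. The difference between the backgrounds gave 5 genes without a filter, 0 to 1 with a library left out and 0 otherwise. Signs near 0 turned in DM against Atm MT. The log2 ratio of Fzd6 was −0.016 with library weights and −0.016 to 0.13 with a library left out. That of Gm1965 was 0.12 with a pseudocount of 0.1, 0.10 without the Xist-high libraries and −0.15 to 0.052 with a library left out. That of Hoxa7 was −0.12 with library weights, −0.067 without the Xist-high libraries and −0.012 to 0.25 with a library left out. That of Ms4a6c was 0.23 after scaling, 0.087 with immunoglobulin genes removed and libraries rescaled, and 0.031 with the replicate block. It was 0.0031 with Xist as a covariate, 0.13 without the Xist-high libraries and −0.14 to 0.094 with a library left out. The cause of these shifts was not tested. Replicate numbers did not pair the Sf3b1 MT and WT libraries (correlations of deviations 0.10, −0.35 and −0.10), and with the replicate block 4 genes passed, 3 of them among the 7.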
